A study of Mus musculus with 45 samples.

Results

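The cytosolic malic enzyme gene Me1 and 9 genes of fatty acid synthesis, elongation and desaturation (Acly, Acaca, Acacb, Fasn, Elovl6, Elovl5, Scd1, Scd2 and Fads2) were followed in sorted small intestinal tuft cells of mice on a high fat or a reference diet. The genes were taken by name from the gene tables, where all 10 were found among 47729 genes, and all 10 were among the 14020 genes with enough reads to be tested. They were chosen by their roles and with their HFD against RFD differences in counts and TPM of these same libraries in view. The diet differences of these genes are therefore given as a description, without p-values. For them p-values are given only where the feeding sets are compared on the same diet. The choice did not use that comparison, but it used values of the same libraries.

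Male C57BL/6J mice, put on the diets when young and housed at thermoneutrality, received the reference fat diet (RFD, 10% fat) or the high fat diet (HFD, 60% fat). Tuft cells were sorted from the small intestine by EpCAM and Siglec-F. For CD45 the study's methods are unclear, since they write the sorted cells as EpCAM+CD45+ Siglec-F+ but also state that CD45 served to exclude cells. One set, named STF, was fed for 9 weeks and gave 11 RFD and 11 HFD libraries, and another, named LTF, was fed for 22 weeks and gave 11 RFD and 12 HFD libraries, each from the RNA of 1 numbered mouse amplified by Smart-seq2. The 22 weeks come from the study's methods, whereas the sample labels give 9 weeks for both sets. Set and feeding time cannot be told apart. Tuft cells are rare chemosensory cells of the gut epithelium, and EpCAM with Siglec-F enriches for them without being unique to them.

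Fatty acid synthesis in the cytosol starts from citrate, which ATP citrate lyase (Acly) cleaves to acetyl-CoA. The acetyl-CoA carboxylases Acaca and Acacb make malonyl-CoA from it, and fatty acid synthase (Fasn) builds palmitate from both, spending NADPH. Malic enzyme (Me1) oxidises malate to pyruvate and thereby returns NADPH. Elovl6 lengthens palmitate, the stearoyl-CoA desaturases Scd1 and Scd2 put the first double bond into saturated chains, and Fads2 and Elovl5 act on polyunsaturated fatty acids from the diet. In the liver these genes are known as a group that is induced by carbohydrate feeding through SREBP-1c and ChREBP, while Me1, Scd1 and Fads2 are also known to respond to the fatty acid receptor PPAR alpha.

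Levels are given as CPM, the reads of a gene per 1000000 reads of its library after scaling by trimmed means (TMM). Total reads per library ranged from 189340 to 4193097 in 9-week RFD, from 409023 to 3600000 in 9-week HFD, from 829184 to 3476758 in 22-week RFD and from 661598 to 4690213 in 22-week HFD. At least 10014 of the tested genes had a read in 44 of the 45 libraries, whereas the library of 22-week RFD mouse 3 had 6789. Me1, Fasn, Scd1, Scd2, Elovl5 and Fads2 were at 0 there, and Elovl6 had 5 reads. The tuft markers Dclk1 and Trpm5 were detected in every library. Summed over 20 tuft markers, the range was 3211 to 21281 CPM in 9-week RFD, 297.5 to 21174 in 9-week HFD, 3213 to 19853 in 22-week RFD and 892.6 to 19353 in 22-week HFD. At 9 weeks 18 of 19 tested tuft markers were lower in HFD (median log2 fold change -0.96, none past the threshold). Enterocyte markers were present in every library, with a summed level over 12 genes between 589.5 and 11872 CPM. In 9-week HFD mouse 80, 32.4% of all reads fell on 7 Paneth cell markers. Cd3e and Cd8a of T cells reached at most 10.2 and 10.0 CPM. Fewer cells of a type and less RNA per cell cannot be told apart in such bulk libraries.

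Me1 lies on the minus strand of chromosome 9 (chr9:86581371-86695953, GRCm38). Its upstream sequence is shown with those of Fads2 (chr19:10062765-10101746, minus strand), which was also higher in HFD at 9 weeks, and Fasn (chr11:120805846-120824547, minus strand), the synthase itself, whose log2 fold changes were small, so that the regulatory letters of genes with different diet responses can be compared. The PPAR response element is known as a direct repeat, here searched as AGGTCANAGGTCA on both strands, and the stretch closest to it is in capitals, the first such stretch where several tie. Each line gives the 250 bases before the RefSeq transcription start, 5′ to 3′ on the gene's strand, for Me1 chr9:86695915-86696164, for Fads2 chr19:10101504-10101753 and for Fasn chr11:120824548-120824797, all in GRCm38.p6.
Me1: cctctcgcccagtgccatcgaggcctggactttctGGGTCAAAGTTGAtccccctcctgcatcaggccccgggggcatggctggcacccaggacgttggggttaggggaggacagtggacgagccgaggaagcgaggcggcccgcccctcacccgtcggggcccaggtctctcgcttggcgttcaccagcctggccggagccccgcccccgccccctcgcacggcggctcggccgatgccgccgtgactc
Fads2: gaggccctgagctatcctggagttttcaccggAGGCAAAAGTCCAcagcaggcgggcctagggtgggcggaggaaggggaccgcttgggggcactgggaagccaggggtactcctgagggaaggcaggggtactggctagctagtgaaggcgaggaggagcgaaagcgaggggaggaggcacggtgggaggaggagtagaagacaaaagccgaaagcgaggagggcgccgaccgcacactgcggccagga
Fasn: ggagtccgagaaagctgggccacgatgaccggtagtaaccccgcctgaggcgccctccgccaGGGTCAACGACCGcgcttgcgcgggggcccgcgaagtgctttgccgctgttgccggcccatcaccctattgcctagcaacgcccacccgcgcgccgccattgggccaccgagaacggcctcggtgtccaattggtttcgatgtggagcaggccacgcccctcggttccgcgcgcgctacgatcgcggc
The stretch of Me1 differed from the motif at 3 of 12 fixed positions and lay 203 to 215 bases before the start, that of Fads2 at 4 positions and that of Fasn at 5. Stretches with at most 3 differences occurred in 21.3% of the 32851 promoters of the table, with at most 4 in 74.5% and with at most 5 in 99.6%. RefSeq windows were at hand for 8 of the 10 genes. Among those not printed, Acacb, with a 9-week log2 fold change of -0.80, also differed at 3 positions. Acly, Acaca, Elovl5 and Elovl6 differed at 4, as did the second window of Me1. The half-site AGGTCA was found in 2 of the 8 genes (Acly and Elovl6, not Me1 or Fads2) and in 4607 of the 32851 promoters. The E-box CACGTG was found in 1 of the 8 (Elovl5; 6.02% of all promoters), the sterol element TCACNCCAC in 0 of 8 (1.05% of all) and the CCAAT box in 4 of 8 (Me1, in a second window, Fasn, Acacb and Elovl5; 33.8% of all). These matches describe letters only.

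Me1 was close to absent on RFD and present in nearly every HFD library. At 9 weeks the RFD libraries had 0 CPM at the lowest, 0 at the median and 14.7 at the highest, with 6 of 11 libraries at 0. The 9-week HFD libraries had 0, 13.1 and 28.9 CPM. Groups overlapped through 1 library on each side. RFD mouse 23 held 54 of the 64 Me1 reads of its group, while the next RFD library had 1.95 CPM, and HFD mouse 64 had no Me1 read. Of the HFD libraries, 4 of 11 were above every RFD library and 10 of 11 were above the RFD median. At 22 weeks RFD ranged from 0 over 0.733 to 3.34 CPM, with at most 3 reads in any library, and HFD ranged from 4.34 over 30.8 to 55.7 CPM. Those groups did not overlap, a property that 1 of the 14020 genes (0.00713%), Me1 itself, had in this direction.

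**Figure D1:**
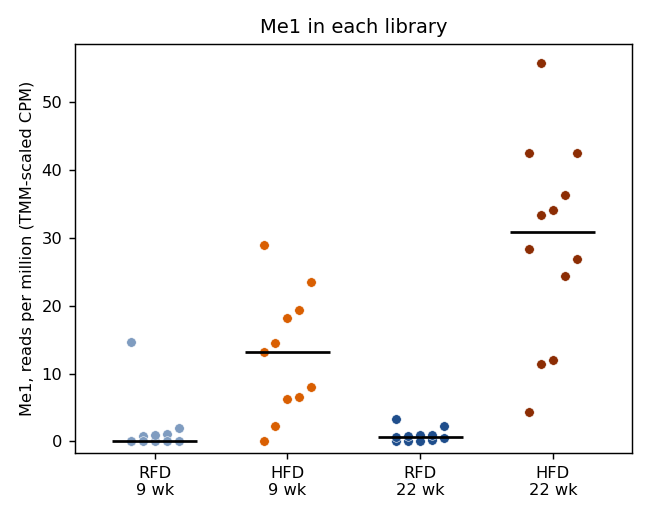
Me1 in CPM (vertical axis) for each library (points) in the 4 groups, with black lines at the medians. RFD libraries lie at or below 3.34 CPM except for 1 at 14.7 CPM, and HFD libraries reach 28.9 CPM at 9 weeks and 55.7 CPM at 22 weeks.

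The fitted log2 fold change of Me1 was 2.56 (SE 0.83, 95% interval 0.87 to 4.25) at 9 weeks and 5.11 (SE 0.51, 4.06 to 6.15) at 22 weeks. Because RFD reads were so few, the pooled reads are given beside these fits. At 9 weeks 64 RFD reads stood against 255 HFD reads, a ratio of pooled CPM of 4.13 (95% counting interval 3.13 to 5.52). Without RFD mouse 23 it was 10 against 255 reads, a ratio of 21.8 (11.7 to 46.0), and the fitted log2 fold change was 4.38. At 22 weeks 15 RFD reads stood against 736 HFD reads, a ratio of 41.4 (24.9 to 74.4). These intervals cover counting error only, since amplified reads are not independent molecules. The sample names form 3 series of mouse numbers (1 to 8, multiples of 10, and the rest, 21 to 24 in RFD and 62 to 64 or 31 to 34 in HFD), from which 9-week RFD mouse 84 and 22-week HFD mouse 65 were left out as fitting none. Within each series the difference in mean log2 CPM was above 0, at 3.33, 3.03 and 0.79 in 9-week libraries and 4.18, 3.05 and 4.18 in 22-week libraries. The labels do not say what the series stand for.

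The libraries at the extremes differed in more than Me1. HFD mouse 64 of the 9-week set had no read of Fads2, Scd1, Cyp4a10 or Acot1 either, had the lowest enterocyte marker sum of its group (589.5 CPM) and the highest tuft marker sum (21174 CPM). RFD mouse 23 had 14.7 CPM of Me1 but no read of Scd1, Cyp4a10 or Acot1, and its enterocyte marker sum of 2612 CPM was the median of its group. Within the HFD groups Me1 and the mean log2 CPM of 12 enterocyte markers went together across libraries, with Spearman rho of 0.63 (n = 11) at 9 weeks and 0.66 (n = 12) at 22 weeks. In the RFD groups rho was 0.25 and -0.27. All 22-week RFD libraries had at most 3.34 CPM of Me1. Their highest enterocyte marker sum, 11872 CPM, was that of mouse 3, the library with only 6789 genes detected. The next was 6534 CPM (mouse 30), and the highest in 22-week HFD was 6913 CPM (mouse 65). With the enterocyte level as a covariate the log2 fold change of Me1 was 3.24 at 9 weeks and 5.20 at 22 weeks, and with the tuft level as a covariate 2.87 and 5.13. The enterocyte markers themselves differed by diet. Their median log2 fold change was -0.43 at 9 weeks and -0.42 at 22 weeks, with 2 and 5 of 12 above 0. Covariate and diet are therefore not independent in these fits.

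At the steps from citrate to palmitate the diets overlapped. Acly, the source of cytosolic acetyl-CoA, lay at 31.1, 92.5 and 118 CPM (lowest, median and highest) in 9-week RFD and at 26.1, 84.6 and 137 in 9-week HFD. At 22 weeks its values were 53.3, 86.7 and 124 in RFD and 50.3, 90.3 and 158 in HFD. All 4 ranges overlapped widely, and the log2 fold changes were 0.03 (SE 0.23) and 0.05 (SE 0.19). The 95% intervals reached from -0.44 to 0.51 and from -0.33 to 0.44, so differences of up to about these sizes are not excluded.

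Fasn, which assembles palmitate, ranged over 14.9, 34.7 and 69.9 CPM in 9-week RFD and 10.1, 38.5 and 53.8 in 9-week HFD, and over 0, 26.4 and 41.0 CPM in 22-week RFD and 22.8, 33.1 and 52.6 in 22-week HFD. Its log2 fold changes were -0.20 (SE 0.29) and 0.30 (SE 0.33). Here too the diets overlapped at both times.

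Of the carboxylases, Acaca (chr11:84129672-84401651, plus strand), the form that feeds synthesis, differed by -0.13 (SE 0.33) and -0.07 (SE 0.23) on the log2 scale. It reached from 15.8 to 31.3 CPM in 22-week RFD and from 9.74 to 36.1 in 22-week HFD. Acacb (chr5:114146535-114250761, plus strand), the mitochondrial form known for restraining fatty acid oxidation, ranged over 0, 54.2 and 90.5 CPM in 9-week RFD and 4.51, 29.3 and 65.8 in 9-week HFD. The RFD median exceeded all HFD values except 1, and the fitted difference was -0.80 on the log2 scale (SE 0.40, 95% interval -1.61 to 0.02). At 22 weeks it was -0.29 (SE 0.33). Acacb went with the tuft markers of the same library, with Spearman rho of 0.90, 0.83, 0.75 and 0.72 in 9-week RFD, 9-week HFD, 22-week RFD and 22-week HFD. With the tuft level as a covariate its log2 fold change was 0.10 at 9 weeks and 0.00 at 22 weeks.

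**Figure D2:**
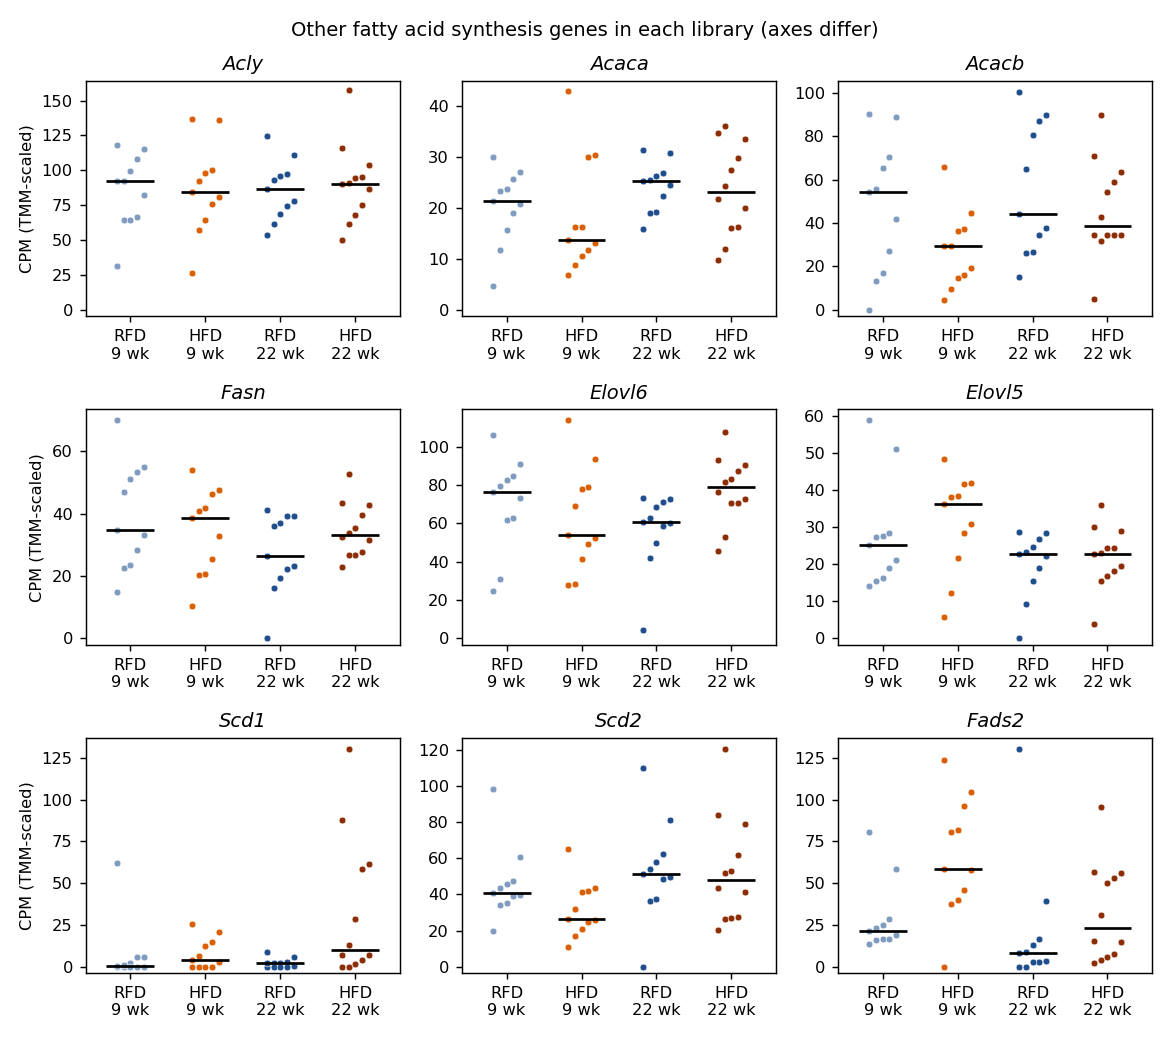
CPM of the other 9 genes (vertical axes, which differ between panels) for each library (points) in the 4 groups, with black lines at the medians. Acly, Acaca and Fasn overlap widely between diets, whereas Scd1 reaches 130 CPM in 22-week HFD and Fads2 has a median of 58.3 CPM in 9-week HFD against 21.4 CPM in 9-week RFD.

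The elongases differed little. Elovl6 (chr3:129532355-129638495, plus strand), which turns palmitate into stearate, ranged over 4.38, 60.8 and 73.4 CPM in 22-week RFD and 45.3, 78.8 and 108 in 22-week HFD, where 7 of 12 libraries were above every RFD library. Its log2 fold change was 0.42 (SE 0.25) at 22 weeks and -0.17 (SE 0.26) at 9 weeks. Without RFD mouse 3, which held the lowest value, the 22-week log2 fold change was 0.29. Elovl5 (chr9:77917364-77984519, plus strand), an elongase of polyunsaturated chains, differed by 0.20 (SE 0.30) and 0.10 (SE 0.36), with medians of 25.2 and 36.2 CPM at 9 weeks and 22.7 and 22.9 CPM at 22 weeks.

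The desaturases split. Scd1 (chr19:44394455-44407879, minus strand) was at 0, 1.96 and 8.44 CPM in 22-week RFD and at 0, 9.84 and 130 in 22-week HFD, where 6 of 12 libraries were above every RFD library and 2 had no read. Its log2 fold change was 3.98 (SE 0.87) at 22 weeks. Pooled, 38 RFD reads stood against 1158 HFD reads, a ratio of 25.7 (counting interval 18.6 to 36.5). HFD mouse 5 alone held 642 of the HFD reads, and without it the ratio was 14.3 (10.3 to 20.5). At 9 weeks Scd1 was at 0, 0.495 and 62.2 CPM in RFD and 0, 4.05 and 25.7 in HFD, with 5 and 4 libraries at 0. The highest RFD value rested on 8 reads of mouse 40, the library with the fewest reads of all. The log2 fold change was 1.10 (SE 1.22). It was 2.57 without mouse 40, 0.55 without HFD mouse 8, 0.38 with the tuft level as a covariate and 0.094 with DESeq2.

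Scd2 (chr19:44293674-44306864, plus strand), the neighbouring desaturase gene, ranged over 0, 51.4 and 110 CPM in 22-week RFD and 20.4, 47.9 and 121 in 22-week HFD, with log2 fold changes of -0.50 (SE 0.28) at 9 weeks and -0.03 (SE 0.38) at 22 weeks. Scd1 made up 2.63% of the reads of both desaturases in 9-week RFD, 19.0% in 9-week HFD, 3.21% in 22-week RFD and 42.7% in 22-week HFD. The authors' counting assigns reads that fit more than 1 gene by estimate, and how many reads these related genes share was not measured here.

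Fads2, which desaturates dietary linoleate and alpha-linolenate, ranged over 13.6, 21.4 and 80.7 CPM in 9-week RFD and 0, 58.3 and 124 in 9-week HFD. Of the HFD libraries, 5 of 11 were above every RFD library, and mouse 64 was below every one. The log2 fold change was 1.23 (SE 0.45, 95% interval 0.30 to 2.16), and the series of mouse numbers gave differences in mean log2 CPM of 1.46, 0.86 and -0.31, the last being the one that holds mouse 64. At 22 weeks Fads2 was at 0, 8.31 and 130 CPM in RFD and 2.24, 23.3 and 95.5 in HFD. The highest RFD library, mouse 1, held 79.2% of the Fads2 reads of its group. The log2 fold change was 0.66 (SE 0.70) with it and 1.87 without it. Fads2 went against the tuft markers of the same library, with Spearman rho of -0.65, -0.69, -0.31 and -0.69 in 9-week RFD, 9-week HFD, 22-week RFD and 22-week HFD. With the tuft level as a covariate the 9-week log2 fold change was 0.53, and with the enterocyte level 1.45. Paneth markers moved with Fads2 as well. The median sum of 7 Paneth markers was 2969 CPM in 9-week RFD and 29463 in 9-week HFD, and 1522 and 10984 in the 22-week groups. The 9-week HFD libraries highest in Fads2, mice 80, 70 and 8 at 124, 105 and 96.1 CPM, had 32.4%, 23.7% and 17.5% of their reads on these markers, the highest shares of all libraries. Fads2 was also highest in 9-week RFD mouse 20, followed by mouse 10, and in 22-week RFD mouse 1. Mice 20 and 1 led their groups in Paneth share at 10.4% and 4.89%, and mouse 10 came next to mouse 20. Spearman rho of Fads2 with the Paneth markers was 0.35, 0.87, 0.93 and 0.58 in the 4 groups in the order above, and that of Acacb was -0.72, -0.64, -0.09 and -0.34. The part of Paneth cells in the Fads2 and Acacb differences was not tested.

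**Figure D3:**
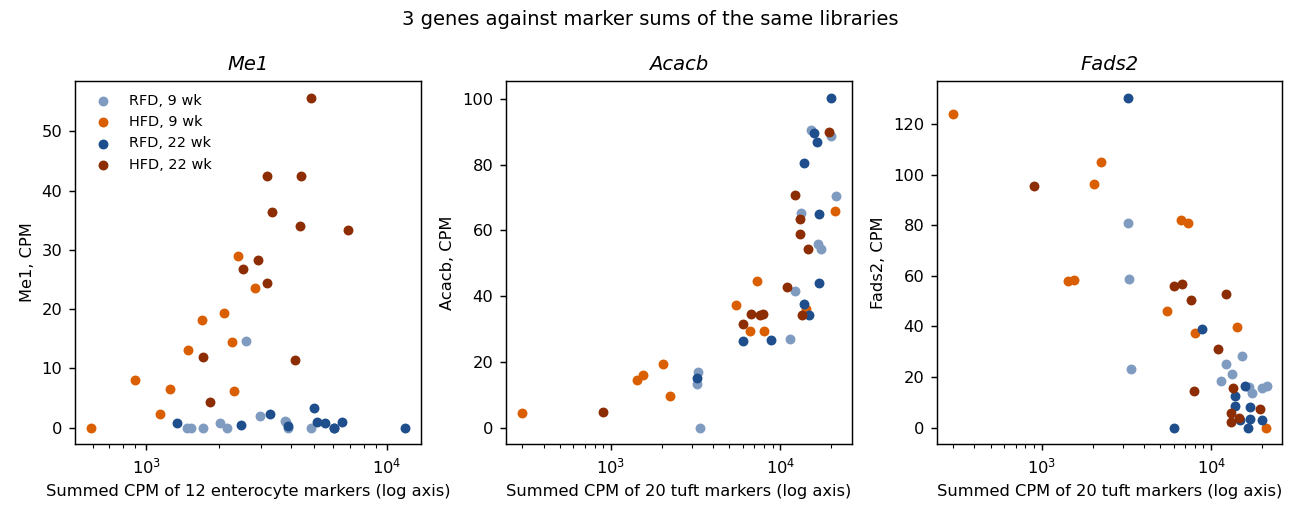
CPM of Me1, Acacb and Fads2 (vertical axes) against the summed CPM of 12 enterocyte markers (left) or 20 tuft markers (middle and right) in the same library, on log horizontal axes, with 1 point per library in 4 colours for the groups. RFD libraries stay near 0 for Me1 at every enterocyte level except 1, Acacb is higher where tuft markers are higher, and Fads2 is lower there.

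Counted over the 10 genes, none passed an adjusted p of 0.1 (edgeR quasi-likelihood test over all genes) between the diets at 9 weeks, where 3.07% of all tested genes did, and Me1 and Scd1 passed at 22 weeks, where 0.728% did. Nothing is read from these counts because the same contrasts chose the genes. The median log2 fold change of the 10 genes was -0.05 at 9 weeks, against -0.05 over all tested genes, and 0.20 at 22 weeks, against -0.03. Taken in each library as the log2 CPM of Me1 minus the mean log2 CPM of the other 9 genes, Me1 stood at -3.98 ± 1.27 (SD, n = 11) in 9-week RFD and -1.48 ± 1.36 (n = 11) in 9-week HFD, and at -3.70 ± 0.80 (n = 11) in 22-week RFD and -0.38 ± 0.90 (n = 12) in 22-week HFD. The shift with diet was 2.50 and 3.32, while the mean of the other 9 genes was 4.79 ± 0.32 and 4.81 ± 0.34 in the 9-week groups and 4.48 ± 0.89 and 5.07 ± 0.41 in the 22-week groups. In this measure 5 of 11 HFD libraries lay above every RFD library at 9 weeks and 11 of 12 at 22 weeks. The highest 22-week RFD value, -1.89, was that of mouse 3, the library of low detection. Fasn, Scd1, Scd2, Elovl5 and Fads2 had no read there, which also widens the spread of the 22-week RFD mean. With a prior count of 0.5 the counts were 3 of 11 and 12 of 12.

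**Figure D4:**
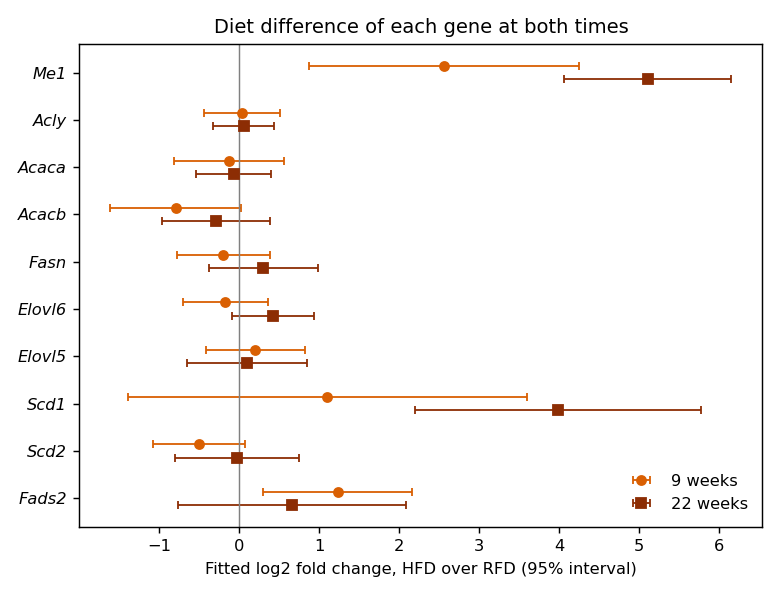
Fitted log2 fold change of HFD over RFD (horizontal axis) for each gene at 9 weeks (circles) and 22 weeks (squares), with 95% intervals from the edgeR fit. Me1 lies at 2.56 and 5.11, Scd1 at 1.10 and 3.98 and Fads2 at 1.23 and 0.66. These contrasts chose the genes, so the intervals describe the fits and are not a test.

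Compared per transcript length, as TPM, the order of the genes differed between groups. In 9-week RFD Acly (median 18.9 TPM), Elovl6 (16.9), Elovl5 (13.7) and Fads2 (11.9) led, with interquartile ranges that overlapped from each gene to the next, and Me1 was last with a median of 0. In 22-week RFD Me1 was again last, at 0.22 TPM, next to Scd1 at 0.38 TPM, a pair whose interquartile ranges overlapped. In 9-week HFD Fads2 came first at 34.2 TPM and was the highest of the 10 genes in 8 of 11 libraries, and Me1 had rank 8 at 2.41 TPM. In 22-week HFD Me1 had rank 5 at 10.5 TPM (interquartile range 6.39 to 14.6), between Elovl5 at 10.8 TPM and Scd2 at 8.46 TPM, whose interquartile ranges overlapped with that of Me1, and above Fasn at 4.01 TPM and Acaca at 3.02 TPM.

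**Figure D5:**
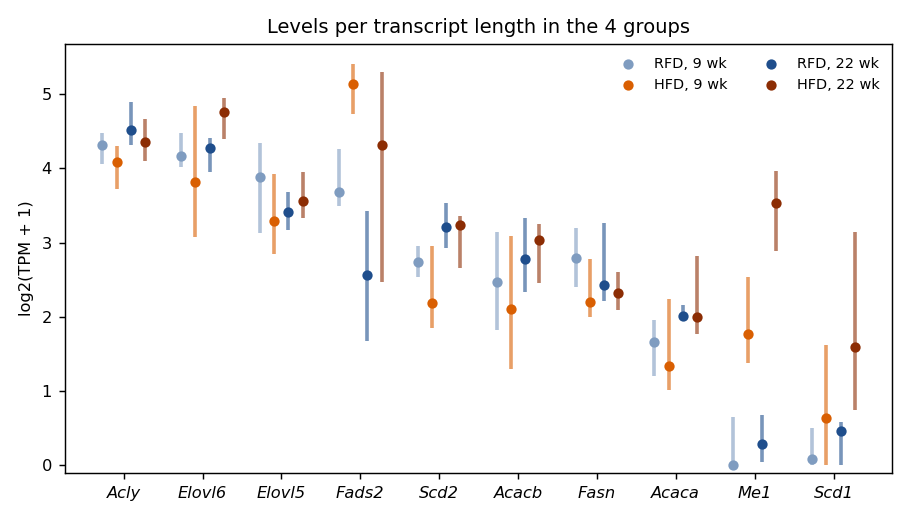
Median log2(TPM + 1) (points) and interquartile range over libraries (bars) of the 10 genes in the 4 groups. Me1 is at the bottom in both RFD groups and at rank 5 of 10 in 22-week HFD, and Acly and Elovl6 are among the highest 3 genes in every group.

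Between the feeding sets on the same diet, none of the 10 genes passed an adjusted p of 0.1, against 0.706% of all genes on RFD and 9.42% on HFD. The choice of genes did not use this comparison. It had values of the same libraries in view, however, so these p-values are not independent of it. Me1 had at most 3 reads in 10 of 11 libraries of 9-week RFD and in all 11 of 22-week RFD. It thus met the read filter through HFD libraries. On HFD, Me1 was higher in the 22-week set by 1.20 on the log2 scale (SE 0.45, adjusted p = 0.121, edgeR quasi-likelihood test), with 6 of 12 libraries above every 9-week library. Scd1 differed by 2.13 (SE 0.86, adjusted p = 0.150), Scd2 by 0.76 (SE 0.30, adjusted p = 0.134), Acacb by 0.72 (SE 0.35, adjusted p = 0.242) and Fads2 by -0.98 (SE 0.53, adjusted p = 0.304, edgeR for each). Unadjusted, Me1, Scd1, Scd2 and Acacb had a p under 0.05, as did 20.1% of all genes. Enterocyte markers moved in the same comparison. All 12 were higher in the 22-week HFD libraries (median log2 fold change 1.18), and 9 of them passed the threshold. With their level as a covariate Me1 differed by -0.33 and Scd1 by -0.23. In median TPM the Me1 level was 2.41 and 10.5, a wider gap than in CPM (13.1 and 30.8). On RFD the differences ran from -1.27 (Me1, SE 0.95, adjusted p = 0.821) to 0.19 (Acaca, SE 0.28, adjusted p = 0.938, edgeR), and none had an unadjusted p under 0.05, as 7.9% of all genes did. Without 9-week RFD mouse 23 the Me1 difference on RFD was 0.54.

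The difference between the diet effects at both times, taken as a description, was 2.61 on the log2 scale for Me1 (SE 0.94, 22 weeks over 9 weeks), 2.32 for Scd1 (SE 1.51) and -0.56 for Fads2 (SE 0.87). For Me1 it leaned on 9-week RFD mouse 23. Without that library the log2 fold change of Me1 at 9 weeks was 4.38, beside 5.11 at 22 weeks, and the difference was not refitted. For the other 7 genes the difference between the diet effects lay between -0.06 and 0.64.

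Among themselves the 10 genes were only loosely tied. With group means removed, the 45 pairs of genes had a median Spearman rho of 0.10 over 45 libraries, which share depth and scaling. The closest pairs were Fasn with Scd2 (0.48) and Acaca with Acacb (0.45), the most opposed was Acacb with Fads2 (-0.49), and Me1 was nearest to Scd1 (0.36) and lay between -0.21 and 0.13 with the others. Over all 45 libraries, group differences included, the genes most like Me1 were none of the pathway. They were Cyp4a10, a fatty acid omega-hydroxylase (Spearman rho 0.81), Ces1f, a carboxylesterase (0.78), the aldehyde dehydrogenase Aldh9a1 (0.77), Hsdl2 (0.77) and the aldo-keto reductase Akr1b8 (0.75). Of the other 9 genes Scd1 came nearest (0.48), followed by Fads2 (0.27), and Fasn, Acaca, Acacb, Acly, Scd2 and Elovl5 lay between -0.13 and -0.03.

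The regulators of the pathway did not pass the threshold, which 3.07% of all tested genes passed at 9 weeks and 0.728% at 22 weeks. Of 16 tested regulators (Srebf1, Srebf2, Mlxipl, Nr1h3, Ppara and others), 0 passed at either time by edgeR, with 3 at an unadjusted p under 0.05 at 9 weeks and 5 at 22 weeks, against 18.2% and 10.3% of all genes, the same shares that stand beside the next 2 lists. The most abundant were Mlx, a partner of ChREBP, with log2 fold changes of 0.10 (SE 0.22) and 0.15 (SE 0.18), and Srebf2, the sterol regulator, with -0.41 (SE 0.27) and 0.09 (SE 0.34). Glyceride synthesis, which uses the fatty acids made, had 0 of 14 genes past the threshold at either time, with 2 and 0 at an unadjusted p under 0.05. Mogat2, the intestinal monoacylglycerol acyltransferase, differed by 0.14 (SE 0.29) and 0.27 (SE 0.26), and Agpat2 by -0.03 (SE 0.19) and 0.26 (SE 0.18). Of 10 tested genes of other elongation and desaturation steps, 0 passed, with 3 and 2 at an unadjusted p under 0.05. Their median log2 fold change was 0.48 at 9 weeks and 0.46 at 22 weeks, with 7 of 10 above 0 each time. Over all tested genes the medians were -0.05 and -0.03. The most abundant genes of this list lay below 0. Tecr, the last enzyme of the elongation cycle, differed by -0.08 (SE 0.18) and -0.06 (SE 0.14), and Elovl1, an elongase of saturated chains, by -0.50 (SE 0.21) and -0.20 (SE 0.17).

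Among genes that supply citrate and NADPH, isocitrate dehydrogenase genes rose. Of 16 genes, 2 rose at 9 weeks, against 3.07% of all tested genes called, and 1 at 22 weeks, against 0.728%, and none fell. This list and the next were drawn up with earlier results of these libraries known, so their diet p-values are not independent evidence. Idh1, the cytosolic NADP-dependent isocitrate dehydrogenase, was 132 ± 59.9 CPM (SD, n = 11) in RFD and 250 ± 104 (n = 11) in HFD at 9 weeks. The HFD value was higher by 0.95 on the log2 scale (SE 0.28, adjusted p = 0.0866, edgeR). At 22 weeks it was 151 ± 61.5 (n = 11) and 301 ± 79.3 CPM (n = 12), higher by 0.99 on the log2 scale in HFD (SE 0.22, adjusted p = 0.0303, edgeR), with 10 of 12 HFD libraries above every RFD library. Idh2, its mitochondrial counterpart, rose at 9 weeks by 0.97 (SE 0.30, adjusted p = 0.0940, edgeR). The other genes of the list, among them Me2, Me3 and the pentose phosphate enzymes G6pdx and Pgd, did not pass at either time. The list's median log2 fold change was 0.33 at 9 weeks and 0.21 at 22 weeks. In the separate mitochondrial synthesis pathway, Mecr, its enoyl reductase, rose at 9 weeks by 1.17 (SE 0.30, adjusted p = 0.0689, edgeR), alone of 6 genes, and differed by 0.36 (SE 0.42) at 22 weeks, where 0 of 6 passed. The 9-week calls of Idh1 and Idh2 held in 4 of 9 alternative settings each, that of Mecr in 7 of 9, and the 22-week call of Idh1 in 9 of 9. The adjusted p over those settings ranged from 0.0199 to 0.512 for Idh1, from 0.0280 to 0.730 for Idh2 and from 0.00679 to 0.437 for Mecr at 9 weeks, and from 0.00111 to 0.0935 for Idh1 at 22 weeks.

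Genes known to respond to PPAR alpha moved in the same libraries. Of 19 tested, 8 rose at 9 weeks and 7 at 22 weeks and none fell, with median log2 fold changes of 0.89 at both times. Over all tested genes 3.07% and 0.728% were called and the medians were -0.05 and -0.03. Cyp4a10 was above every RFD library in 10 of 11 HFD libraries at 9 weeks and 11 of 12 at 22 weeks. Acot1, an acyl-CoA thioesterase, was above in 10 of 11 and 9 of 12. Among those counted, Eci2 of fatty acid oxidation was higher at 9 weeks by 0.89 (SE 0.19) on the log2 scale, and Angptl4, a lipoprotein lipase inhibitor, at 22 weeks by 2.19 (SE 0.48). These genes were listed with their diet differences known, so no p-values are given and their count is no independent evidence of a direction.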

How the data were processed

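Libraries of sorted tuft cells were prepared by the authors with Smart-seq2 and Nextera XT and sequenced as read pairs. The submitters' processing notes name cutadapt 1.15, STAR 2.6.0, RSEM and the build GRCm38, and the annotation release is not given in the sources used here. The authors deposited RSEM expected counts, TPM and FPKM per gene in 1 table for each feeding set. Of the counts above 0, 8.79% were not whole, and counts were rounded. Another 24 sample columns of each kind of table, not mapped to these labels, were not used. Symbols were matched to 47224 of 47729 identifiers, and coordinates are of GRCm38.

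Genes with over 5 reads in at least 6 of 45 libraries were tested (14020). Each comparison was fitted separately with edgeR 4.0.16 (glmQLFit and glmQLFTest, TMM) in R 4.3.3, with Benjamini-Hochberg adjustment over all tested genes and a threshold of 0.1. SE is the log2 fold change divided by the root of its F statistic. CPM used TMM over all 45 libraries, and log2 CPM a prior count of 2. The edgeR script was tested on simulated counts. Alternatives used DESeq2 1.42.0, limma 3.58.1 on log2(TPM + 1) and with voom, other scaling, no filter, covariates, and libraries left out. FPKM served only to repeat the ranks of levels. No pair of libraries held identical counts. Spearman values and counting intervals were computed in Python 3.11.15 with SciPy 1.17.1. The study's own test, on counts weighted by cell type estimates, was not repeated.

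The genes followed and all lists were chosen with earlier results of these data known. Named genes were the 10 genes, up to 4 past the threshold in each other list and diet comparison by smallest p (else the 2 of highest mean CPM), the 5 genes most like Me1 by Spearman rho, and a few defining markers. A gene that this rule names is not reported here. Each library is from 1 mouse by its number. Mouse numbers recur in both sets but mark different mice. Deviations of same-numbered libraries had correlations between -0.29 and 0.07 on RFD and between -0.38 and 0.38 on HFD, so the numbers were not taken as pairs.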

Additional observations from a re-analysis of the deposited data

How the results depend on the processing

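With the diet differences of the 10 genes, the alternatives changed the count of genes past the threshold at 9 weeks from 0 to 1 with DESeq2 (Fads2), to 1 with voom and limma (Me1) and to 2 with the enterocyte marker covariate (Me1 and Fads2). At 22 weeks the count of 2 fell to 1 (Me1) with limma on log2(TPM + 1) and with voom and limma. Leaving out 1 library at a time gave 0 to 2 genes at 9 weeks and 2 in every case at 22 weeks. Me1 passed at 9 weeks without RFD mouse 23, RFD mouse 20, HFD mouse 63 or HFD mouse 64, and Fads2 without RFD mouse 20 or HFD mouse 64. The log2 fold change of Me1 then ranged from 2.38 to 4.38 at 9 weeks and from 4.97 to 5.44 at 22 weeks, and on log2(TPM + 1) it was 1.23 and 2.92, a scale that understates the change of low genes. The shift of Me1 against the other 9 genes was 3.51 at 9 weeks and 4.20 at 22 weeks with a prior count of 0.5. There 3 of 11 and 12 of 12 HFD libraries lay above every RFD library. On log2(TPM + 1) the shift was 1.32 and 2.51, with 1 of 11 and 11 of 12 HFD libraries above every RFD library. The rank of Me1 was the same in FPKM in all 4 groups. Counts over all genes ranged from 11 to 1681 at 9 weeks and from 46 to 351 at 22 weeks, against 431 and 102.

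Between the sets on RFD, 1 gene passed with DESeq2 (Fads2), and 0 passed in every fit with a library left out. On HFD, 1 passed with no filter (Scd1), 1 with DESeq2 (Me1), 2 with limma on log2(TPM + 1) and 2 with voom and limma (Me1 and Scd2), and 2 with the number series as a term (Me1 and Scd1), and 0 to 3 with a library left out. Me1 passed without 9-week mouse 6, 9-week mouse 64 or 22-week mouse 80, and Scd2 and Acacb without 9-week mouse 64. The replicate block over mouse numbers, whose numbers are not pairs, gave 0 of the 10 genes on either diet and 2 genes in all on RFD and 629 on HFD, against 99 and 1320, and 1 of 16 libraries resembled its own number best. Counts over all genes ranged from 2 to 1187 on RFD and from 629 to 2064 on HFD.

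Signs of differences turned, and the cause was not tested. Between diets this held at 9 weeks for Elovl5 (-0.38) and Acly (-0.28) with limma on TPM and for Acacb (0.10), Acaca (0.14) and Elovl6 (0.00013) with the tuft covariate, and at 22 weeks for Fasn (-0.17), Acly (-0.21), Acaca (0.095) and Scd2 (0.091) with limma on TPM, Scd2 with voom (0.31) and 2 other settings, Acacb with the tuft covariate (0.0034) and Elovl5 without the library of low detection (-0.039). Acly turned in 3 of 9 settings at 9 weeks and 2 of 9 at 22 weeks. Between sets on RFD, where Me1 was at -1.27 and Scd1 at -1.09, these were Acly with no filter (0.12), limma on TPM (0.42) and the replicate block (0.045), Me1 with DESeq2 (0.51), Acacb with voom (-0.072) and the replicate block (-0.025), Scd2 with voom (-0.11), and Scd1 with voom (0.43), the number series (0.78), the enterocyte (0.077) and tuft covariates (0.66), the replicate block (1.59) and the libraries of low depth or detection left out, a choice made after seeing the data (1.25). On HFD, where Me1 was at 1.20 and Scd1 at 2.13, they were Fasn with relative log expression factors (-0.028), DESeq2 (-0.017) and limma on TPM (-0.14), Elovl5 with limma on TPM (0.22), Me1 (-0.33) and Scd1 (-0.23) with the enterocyte covariate, and Acly without the libraries of low depth (-0.031). With 1 library left out the difference on RFD ranged from -1.62 to 0.54 for Me1 (the last without 9-week mouse 23), from -0.079 to 0.044 for Acly and from -1.58 to 0.70 for Scd1 (the last without 9-week mouse 40), and on HFD from -0.076 to 0.13 for Fasn and from -0.042 to 0.16 for Acly. Of the other named genes, none past the threshold, Mlx at 9 weeks was -0.13 with limma on TPM, Srebf2 0.038 with the tuft covariate at 9 weeks and -0.048 without the library of low detection at 22 weeks, Mogat2 -0.00065 with the number series and -0.15 with the tuft covariate, Agpat2 0.028 with the enterocyte and 0.11 with the tuft covariate, and Tecr at 22 weeks 0.0070 with no filter. The reads of Me1 and Scd1 on RFD, mostly 0 to 3 a library, limit how well their folds are known.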
